A study of Mus musculus with 32 samples.

Results

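The genes described here are 79 splicing regulators, measured by RNA-seq in the striatum of 16 mice. They belong to 10 families of RNA-binding proteins chosen by gene symbol: the SR proteins with the Tra2 proteins, the hnRNPs, and the PTB, CELF, muscleblind, RBFOX, NOVA, ELAV, STAR and RBM proteins. *Hnrnph1*, *Hnrnph2*, *Hnrnph3*, *Hnrnpf* and *Hnrnpab* were left out by name. A member also had to reach a mean level of 1 CPM (counts scaled to the library's reads on genes) over the 16 mice. Of the 23420 genes in the count tables, 88 carried a symbol of these families, 83 remained after the named exclusions and 79 reached the level. The genes just under it were *Rbm47* at a mean of 0.854 CPM, *Mbnl3* at 0.293, *Rbm46* at 0.285 and *Rbm44* at 0.0413, and the members just above it were *Rbm38* at 2.38 CPM and *Khdrbs2* at 4.30. *Hnrpdl* and *Hnrpll* stood in the tables under older symbols and so fell outside the rule. All 79 members passed the filter on low counts, so none is missing from the comparison.

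The study compared 8 B6 (C57BL/6J) mice with 8 B6.D2 congenic littermates, which carry a DBA/2J-derived segment of chromosome 11 that contains *Hnrnph1* on 1 copy of the chromosome. All mice were naïve and about 50 days old per the labels, although the study's methods give a range of ages that starts there. Both genotypes included both sexes per the same methods. Each library came from striatal punches of both hemispheres of 1 mouse, 3 mm wide per the labels although the study's methods give another diameter. A punch is whole tissue that mixes neurons with glia and vessels. The congenic mice come from 1 line, so the whole segment differs between the genotypes and the share of any 1 gene in it cannot be told apart. The members lie elsewhere: *Srsf1*, *Srsf2* and *Rbfox3* are the 3 members on chromosome 11, and 0 of the 79 lie between the outermost heterozygous markers of the line.

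Splicing regulators bind short RNA motifs in exons and introns of a pre-mRNA and help or hinder the use of nearby splice sites. SR proteins, named for a domain rich in serine and arginine, mostly promote the inclusion of exons, and many hnRNPs and PTB proteins repress them. The CELF, muscleblind, RBFOX, NOVA and neuronal ELAV proteins give neurons much of their tissue-specific splicing. hnRNP H, the product of *Hnrnph1*, binds runs of G in the same kinds of transcript. The question put to the data was whether the RNA of the other regulators differed between the genotypes.

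No member passed an adjusted p of 0.05 here. The study, whose model included home cage, reports the member *Elavl2* as lower in the line at a false discovery rate under 0.05. Home cage is not in the labels, and *Elavl2* had an edgeR adjusted p of 0.611 in the fit used here. At an unadjusted p under 0.05, *Khdrbs3* was lower and *Rbm22* and *Srsf2* were higher in the B6.D2 congenic mice, by 1.15-fold, 1.08-fold and 1.11-fold. The log2 fold changes of the 79 members (B6.D2 congenic over B6) ran from -0.20 to 0.19, and the 95% intervals of all 79 lay within 1.5-fold in either direction. SR protein and Tra2 genes had higher means in the congenic mice for 12 of 13, beside 54.9% of all genes tested. This shift shrank when the 2 mice that stood apart from their genotype were left out.

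The libraries held between 19032826 and 33748353 reads counted on genes. Counting error weighs more for the members with few counts, such as *Rbm38*. B6.D2 congenic mouse 1 and B6 mouse 8 stood apart. The level of a gene in each mouse was set against the median of the other 7 mice of its genotype, and 54.9% of all genes tested lay beyond 0.3 log2 units in B6.D2 congenic mouse 1 and 29.8% in B6 mouse 8, against 8.09% to 15.5% in the other 14 mice. Reads with several alignments made up 27.3% in B6.D2 congenic mouse 1 and 19.5% to 21.4% in the other 14 mice. Reads counted on genes made up 68.3% in B6 mouse 8 and 62.6% to 64.4% in the other 14. The markers of striatal projection neurons summed to between 6588 and 9596 CPM over 9 genes, so the labelled tissue was present in every library.

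Per kilobase of exon, the striatal repertoire was led by hnRNPs and neuronal regulators. The median member stood at 21.9 CPM per kb, against 6.32 over the 14628 genes tested with an exon length, and 62 of the 76 members with a length lay above that median of all genes. The highest level per length was that of *Hnrnpa2b1* at 132 CPM per kb, followed by *Celf4* at 103, *Hnrnpk* at 98.1, *Rbfox1* at 97.2, *Mbnl2* at 76.7 and *Srsf5* at 73.8. hnRNP A2/B1 binds UAG motifs and carries RNAs into processes, and hnRNP K binds stretches of C. The lowest were *Rbm20*, a regulator best known from heart muscle, at 0.657 CPM per kb, and *Rbm38* at 0.830.

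**Figure D1:**
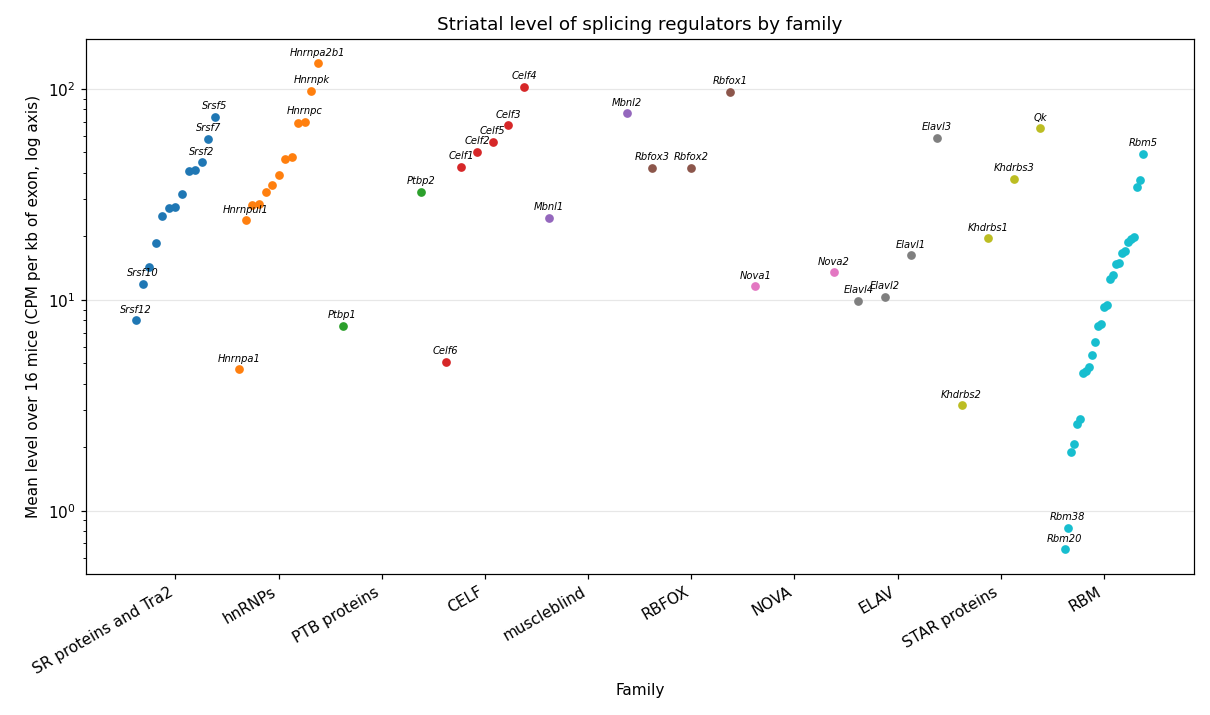
Mean level over the 16 mice of the 76 splicing regulators with an exon length, in CPM per kb on a log axis, by family. Each point is 1 gene, named for all genes of small families and for the lowest and highest of large ones. *Hnrnpa2b1* at 132 is the highest point and *Rbm20* at 0.657 the lowest.

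Within the families the levels per length differed widely. Of the CELF genes, which bind GU-rich sites, *Celf4*, *Celf3*, *Celf5*, *Celf2* and *Celf1* lay between 42.8 and 103 CPM per kb and *Celf6* at 5.09. Of the RBFOX genes, which bind UGCAUG, *Rbfox1* lay at 97.2, and *Rbfox2* and *Rbfox3*, the gene of the neuronal marker NeuN, both at 42.2. *Mbnl2*, the main muscleblind gene of brain, lay at 76.7 and *Mbnl1* at 24.4. *Ptbp2*, the neuronal PTB gene, lay at 32.4 and *Ptbp1*, which is shut down as neurons form, at 7.54. The pan-neuronal *Elavl3* lay at 58.7 CPM per kb, the ubiquitous *Elavl1* at 16.2, and *Elavl2* and *Elavl4* at 10.3 and 9.93. *Nova2* and *Nova1* lay at 13.5 and 11.6. *Qk*, a STAR gene prominent in oligodendrocytes and astrocytes, reached 65.0, *Khdrbs3* 37.4, *Khdrbs1*, the gene of Sam68, 19.6 and *Khdrbs2* 3.17. The SR protein and Tra2 genes ran from *Srsf12* at 8.00 to *Srsf5* at 73.8, with *Srsf7* at 58.0, *Srsf2* at 44.9, *Srsf6* at 41.2 and *Srsf1* at 40.8. Of the RBM genes, *Rbm5* at 49.4, *Rbm25* at 37.1 and *Rbm39* at 34.1 were the highest. Bulk punches do not show which cells hold these RNAs, and more cells of a type cannot be told apart from more RNA per cell.

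Some levels are bounded by the way reads were assigned, because reads with several alignments were not counted. Of all 50-base windows along the exons of *Hnrnpa1*, 15.7% were unique in the NCBIM37 mouse genome, and *Hnrnpa1* stood at 4.69 CPM per kb. For *Hnrnpa3* the share was 17.5%, for *Rbm10* 56.7%, for *Hnrnpk* 61.4%, for *Hnrnpr* 67.3% and for *Srsf10* 67.7%. The median member had 99.8% unique windows and 62 of 76 had over 90%, so the levels of *Hnrnpa1* and *Hnrnpa3* are uncertain and cannot be ranked against the rest. Counting did not use the strand, and reads on exons shared with another gene were dropped. By the GENCODE genes on NCBIM37, on either strand, more than 100 bases of exon were shared in 16 members, among them *Ptbp1*, *Srsf2*, *Hnrnpm* and *Rbm42*. The reads were counted on genes of mm10, so the bases dropped in counting can differ.

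The promoters of the SR protein genes that come first in the genotype comparison are shown here, since these genes also moved together in the mice that stood apart. Each line gives the 250 bases before the transcript start that the RefSeq promoter table lists (GRCm38.p6), 5′ to 3′ on the gene's strand. For each of these genes that start lies inside the outer bounds of the gene. The windows of *Srsf1* and *Srsf2* overlap the gene's position in full, and those of *Srsf5* and *Srsf9* only at their end. Capitals mark exact matches on either strand to any of 4 motifs, and neighbouring matches can overlap. The first motif was a TATA box, searched as TATAAA. The second was a CCAAT box, searched by the letters of its name, and the third a GC box, which was searched as GGGCGG. The last, a cyclic AMP response element, was searched as TGACGTCA.
*Srsf1*, chr11:88047123-88047372, plus strand: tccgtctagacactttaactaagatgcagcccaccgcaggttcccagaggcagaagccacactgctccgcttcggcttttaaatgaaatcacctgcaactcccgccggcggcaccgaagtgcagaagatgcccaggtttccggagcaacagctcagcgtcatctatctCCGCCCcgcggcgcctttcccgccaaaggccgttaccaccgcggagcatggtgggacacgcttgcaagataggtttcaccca
*Srsf2*, chr11:116853095-116853344, minus strand: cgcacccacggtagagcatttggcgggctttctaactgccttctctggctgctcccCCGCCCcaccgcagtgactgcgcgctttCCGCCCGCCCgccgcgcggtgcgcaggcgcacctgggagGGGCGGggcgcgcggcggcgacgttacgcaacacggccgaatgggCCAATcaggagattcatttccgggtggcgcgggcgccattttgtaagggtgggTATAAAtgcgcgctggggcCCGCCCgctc
*Srsf5*, chr12:80945249-80945498, plus strand: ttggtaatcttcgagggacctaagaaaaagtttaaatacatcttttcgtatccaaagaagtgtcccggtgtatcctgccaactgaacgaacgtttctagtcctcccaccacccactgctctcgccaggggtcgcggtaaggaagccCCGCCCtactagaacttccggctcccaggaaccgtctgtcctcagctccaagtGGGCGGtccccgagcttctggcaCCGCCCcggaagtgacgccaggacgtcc
*Srsf9*, chr5:115326927-115327176, plus strand: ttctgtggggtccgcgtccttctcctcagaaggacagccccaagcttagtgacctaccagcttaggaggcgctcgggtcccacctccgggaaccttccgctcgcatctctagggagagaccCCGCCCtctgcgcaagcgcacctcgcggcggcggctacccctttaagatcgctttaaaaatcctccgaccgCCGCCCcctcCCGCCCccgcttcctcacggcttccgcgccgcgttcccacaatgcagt

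These windows were rich in C and G, at 69.6% for *Srsf2*, 65.2% for *Srsf9*, 58.8% for *Srsf1* and 56.8% for *Srsf5*. Each held at least 1 GC box, and only that of *Srsf2* among these 4 also held a TATA box and a CCAAT box. Entries were found for 69 of the 79 members, with 102 starts, and for 32851 starts over all genes. The median window of the members was 60.6% G and C with 17.5 CpG pairs, against 52.4% and 6 over all starts. A GC box lay in 52.9% of the members' windows and 32.7% of all, a CCAAT box in 46.1% and 33.8%, and a TATA box in 12.7% and 12.4%. Windows of neighbouring starts of 1 gene overlap, so a site can count more than once. The cyclic AMP response element lay in 5 of the members' windows, 4.90%, beside 1.55% of all. Of these 5, 3 share 1 site of *Celf3*, and the others belong to *Tra2a* and *Celf6*. These are matches of letters, and binding was not measured.

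Between genotypes, 0 of the 79 members passed an adjusted p of 0.05 by edgeR's quasi-likelihood test, against 0.00641% of all genes tested, which is 1 of 15589. By unadjusted p under 0.05, 3 members passed, 3.80% of 79, against 10% of all genes. Of these, 2 were higher in the congenic mice, against 4.86% of all genes in that direction, and 1 was lower, against 5.14%. The members' share lay under the background in this fit. The smallest adjusted p of a member was 0.408. DESeq2 and edgeR's likelihood ratio test also called 0 members after adjustment, where they called 25 and 20 of all genes. At an unadjusted p under 0.05 they gave 5 and 4 members, beside 10.3% and 9.60% of all genes. Upper-quartile scaling gave 7 higher and 1 lower, 10.1% of the members beside 10.2% of all genes in that fit. The 8 B6 and 8 congenic values did not separate completely for any member (0 of 79), as they did for 0.0577% of all genes.

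The differences were small as well as uncalled. The median log2 fold change over the members was 0.018, beside 0.012 over all genes, and its SD was 0.080, beside 0.16. The mean was higher in the congenic mice for 47 members and lower for 32, so 59.5% were higher, beside 54.9% of all genes. The 95% interval lay within 1.25-fold in both directions for 72 of 79 members, 91.1%, and for 64.8% of all genes. Neither this share nor the SD was matched for level. Of all 15589 genes 10321 were at 10 CPM or more, beside 72 of the 79 members. The spread between mice of 1 genotype was also narrow, with a median SD of 0.110 log2 units over the 72 members at 10 CPM or more and 0.135 over the 10321 genes at that level. This floor did not match the levels above it. The 7 members whose interval reached past 1.25-fold included *Khdrbs2*, with the widest, from -0.45 to 0.09, *Khdrbs3* and *Srsf5*. The 2 mice that stood apart take part in all of these intervals.

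**Figure D2:**
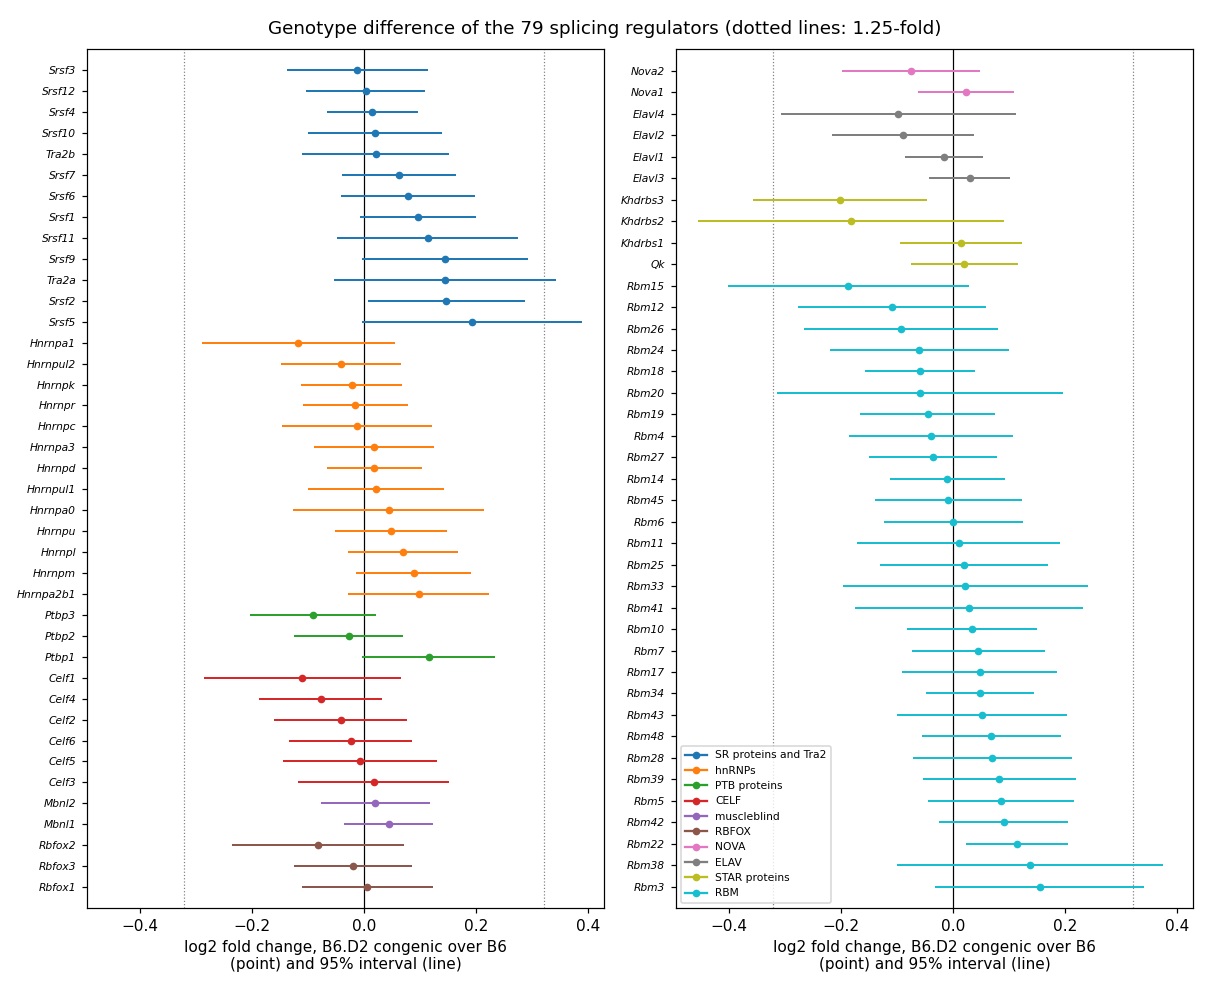
log2 fold change (B6.D2 congenic over B6) of each of the 79 splicing regulators, with its 95% interval from edgeR's quasi-likelihood fit over 16 mice, coloured by family and sorted within it. Dotted lines mark 1.25-fold. The intervals of 72 members stay inside them, and points run from -0.20 for *Khdrbs3* to 0.19 for *Srsf5*.

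*Khdrbs3* (chr15:68928392-69101794, mm10) encodes the STAR protein SLM2, a neuronal relative of Sam68 that regulates neurexin splicing. Its level ran from 67.4 to 87.7 CPM in B6 mice (median 72.7) and from 59.5 to 79.5 in congenic mice, with a median of 63.6. In 6 of 8 congenic mice it lay below every B6 mouse, while congenic mice 1 and 2 lay inside the B6 range. The means were 75.5 ± 8.16 and 65.7 ± 7.37 CPM (SD, n = 8 each), a log2 fold change of -0.20 (SE 0.074, edgeR adjusted p = 0.408). The exact two-sided permutation test over the 16 mice gave p = 0.023. Libraries run on lanes 5 and 6 gave -0.22, and libraries run on lanes 7 and 8 gave -0.19. Without B6 mouse 8 and congenic mouse 1 it was -0.23 (edgeR adjusted p = 0.233).

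Markers of cortical excitatory neurons moved with this difference. All 10 genes of that list had lower means in the congenic mice, 9 of them at an unadjusted p under 0.05, with a median log2 fold change of -0.56. Their summed level ran from 774 to 1208 CPM in B6 mice and from 558 to 1051 in congenic mice, and none of the 10 was near 0. With a score of these markers as a covariate, the log2 fold change of *Khdrbs3* was 0.0014 and 0 members passed an unadjusted p of 0.05, against 2.08% of all genes in that fit. The markers in the score differ between the groups, so genotype and cortical content of the punch cannot be told apart here. The other lists of markers had 0 genes at an unadjusted p under 0.05 for striatal neurons, oligodendrocytes, astrocytes, microglia and choroid plexus. Their means were still higher in the congenic mice for 10 of 10 oligodendrocyte markers (median log2 fold change 0.11), 10 of 10 microglial markers (0.088) and 7 of 8 choroid plexus markers (0.15). The endothelial list had 9 of 10 higher means (median 0.11), 2 of them at an unadjusted p under 0.05. At the same threshold the hypothalamic list had 1 higher of 5 tested, with *Hcrt*, *Pmch*, *Ghrh* and *Sim1* under 0.1 CPM, and the nuclear-retained list 1 higher and 1 lower of 9.

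*Rbm22* encodes a zinc finger protein of the activated spliceosome. It ran from 30.6 to 33.7 CPM in B6 mice (median 32.5) and from 32.2 to 38.3 in congenic mice, with a median of 34.4. In 7 of 8 congenic mice it lay above every B6 mouse. The log2 fold change was 0.11 (SE 0.043, edgeR adjusted p = 0.421) and the exact permutation test gave p = 0.0037. It was 0.10 and 0.13 in the mice of the 2 lane pairs, and 0.093 without the 2 mice that stood apart.

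*Srsf2* (chr11:116849897-116853675), the gene of the SR protein SC35, had a median of 128 CPM in B6 mice, whose values spanned 109 to 132. The congenic values spanned 128 to 183, around a median of 133. B6 mouse 8 held the lowest value and congenic mouse 1 the highest, and the other 14 mice lay between 125 and 140. The log2 fold change was 0.15 (SE 0.066, edgeR adjusted p = 0.476), with an exact permutation p of 0.0085. Without those 2 mice it was 0.050, at an unadjusted edgeR p of 0.064.

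The other SR protein genes with small p-values leaned on the same mice. *Srsf5* (chr12:80945495-80950507) was at 166 CPM in B6 mouse 8, and the other B6 mice lay between 256 and 315, with a median of 290 over all 8. In congenic mice it ran from 301 to 336, with a median of 310, so that the groups overlapped and each congenic mouse lay above the B6 median. The log2 fold change was 0.19 (SE 0.093, edgeR adjusted p = 0.503) and 0.096 without the 2 mice. *Srsf9* (chr5:115327163-115333843) was at 61.8 CPM in congenic mouse 1 and between 41.1 and 44.6 in the other congenic mice. In B6 mice *Srsf9* ran from 38.3 to 43.0 CPM, with a median of 41.4, and its log2 fold change of 0.15 (SE 0.070, edgeR adjusted p = 0.504) was 0.052 without the 2 mice. *Srsf1* (chr11:88046499-88053757), the gene of the SR protein ASF/SF2, was at 186 CPM in B6 mouse 8 and between 225 and 242 in the other B6 mice. In congenic mice *Srsf1* ran from 229 to 261 CPM, with a median of 238, beside 229 in B6 mice. Its log2 fold change was 0.097 (SE 0.049, edgeR adjusted p = 0.519), and 0.041 without the 2 mice. The exact permutation tests gave p = 0.0026 for *Srsf5*, 0.0076 for *Srsf9* and 0.015 for *Srsf1*, without adjustment for the number of genes.

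*Ptbp1* (chr10:79854432-79864435) ran from 30.02 to 38.6 CPM in B6 mice (median 35.2) and from 35.0 to 40.2 in congenic mice, with a median of 37.3. The log2 fold change was 0.12 (SE 0.056, edgeR adjusted p = 0.503), and 0.072 without the 2 mice. *Hnrnpm* (chr17:33646233-33685458), the gene of an hnRNP that binds GU-rich introns, ran from 111 to 142 CPM in B6 mice (median 127) and from 127 to 147 in congenic mice, with a median of 136. Its log2 fold change was 0.089 (SE 0.048, edgeR adjusted p = 0.547). Exact permutation gave p = 0.046 for *Ptbp1* and 0.065 for *Hnrnpm*, and the groups overlapped for both.

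**Figure D3:**
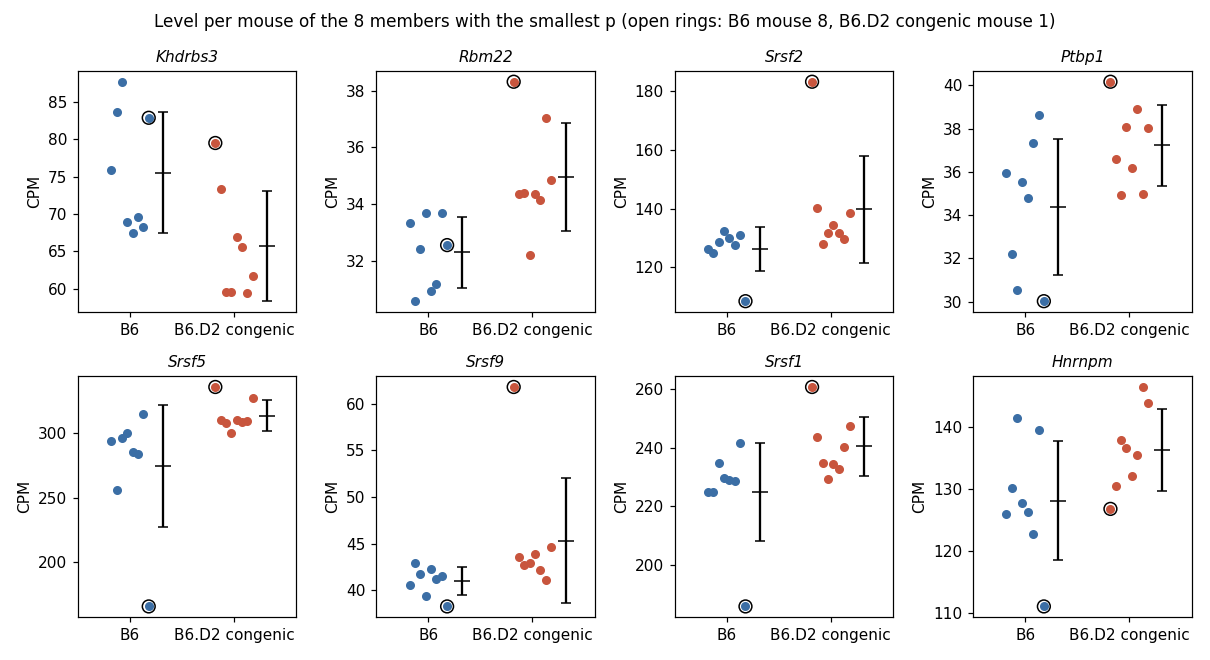
Level in CPM of the 8 splicing regulators with the smallest p, 1 point per mouse, with the mean and SD of each group of 8 beside the points. Axes do not start at 0. Open rings mark B6 mouse 8 and B6.D2 congenic mouse 1, which hold the lowest B6 and the highest congenic value of *Srsf2*, *Srsf5*, *Srsf9* and *Srsf1*.

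The next 12 members by p are given by family. Among the RBM genes, *Rbm15*, whose product helps to place the m6A mark on RNA, had a log2 fold change of -0.19 (SE 0.10, edgeR adjusted p = 0.548). Against the other mice of its genotype *Rbm15* lay at 0.38 log2 units in B6 mouse 8 and at -0.57 in congenic mouse 1. *Rbm3*, a cold-induced gene, had 0.15 (SE 0.088, adjusted p = 0.564), with 133 CPM in congenic mouse 1 and at most 96.8 in the other congenic mice. *Rbm42* and *Rbm5*, a regulator of apoptosis genes, had 0.091 and 0.086. Among the hnRNPs, *Hnrnpa2b1* had 0.098 and *Hnrnpl*, whose product binds CA repeats, 0.070. *Hnrnpa1* had -0.12 and was 0.027 in the mice of lanes 7 and 8. Without the 2 mice that stood apart *Hnrnpa2b1* was at 0.029, *Hnrnpl* at 0.022 and *Hnrnpa1* at -0.12. With all 16 mice *Ptbp3* had -0.091, *Celf4* -0.078 and *Elavl2* -0.090. *Tra2a* and *Srsf11* had 0.15 and 0.11, and without the 2 mice 0.013 and 0.037. The adjusted p of these 12 in edgeR's test ran from 0.548 to 0.636.

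Of the 13 SR protein and Tra2 genes, 12 had a higher mean in the congenic mice and 1 of them passed an unadjusted p of 0.05, with a median log2 fold change of 0.078 beside 0.012 over all genes. The exception was *Srsf3*, at -0.012, and 54.9% of all genes had a higher mean. Under upper-quartile scaling 13 of 13 were higher and under RLE scaling 12, beside 59.3% and 53.7% of all genes. In the mice of lanes 5 and 6, which include congenic mouse 1, 13 of 13 were higher, and in those of lanes 7 and 8, which include B6 mouse 8, 9 of 13. Of all genes 53.5% and 48.2% were higher in these fits. Without both mice 9 of 13 were higher, beside 49.1% of all genes. The median was then 0.013 beside -0.0018 over all genes, and *Srsf5* alone of the 13 passed an unadjusted p of 0.05.

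**Figure D4:**
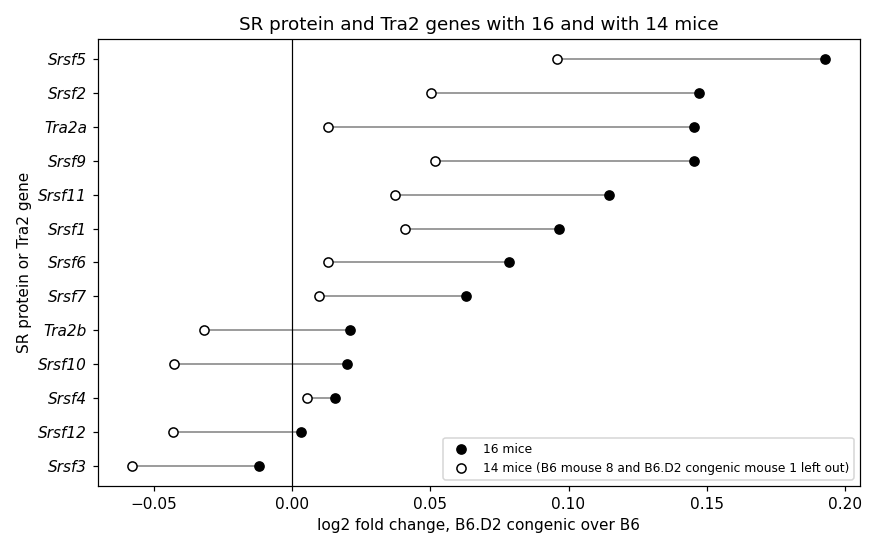
log2 fold change (B6.D2 congenic over B6) of the 13 SR protein and Tra2 genes with all 16 mice (filled) and with 14 mice, B6 mouse 8 and B6.D2 congenic mouse 1 left out (open). The values moved down for all 13 genes, and the median fell from 0.078 to 0.013.

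The neuronal families showed little difference. Of 6 CELF genes, 5 had lower means in the congenic mice and 0 passed an unadjusted p of 0.05, with a median log2 fold change of -0.033. Upper-quartile scaling, under which the median of all genes was 0.024, turned 1 of these 5. Without the 2 mice 4 of 6 were lower, and with the cortical marker score 3 of 6, with a median of -0.0012. The 3 RBFOX genes ran from -0.082 to 0.0063, the 2 muscleblind genes from 0.020 to 0.044 and the 2 NOVA genes from -0.075 to 0.023. Of the 4 ELAV genes 3 had lower means, from -0.097 for *Elavl4* to -0.015 for *Elavl1*. Without the 2 mice *Elavl4* was at -0.18 (SE 0.084, unadjusted edgeR p = 0.044, adjusted p = 0.379). In that fit *Elavl2* was at -0.11, *Elavl1* at -0.032 and *Elavl3* at 0.039. *Elavl4* was at -0.24 in the mice of lanes 5 and 6 and at 0.046 in those of lanes 7 and 8. The interval of every one of these 17 genes lay within 1.25-fold in both directions, and 0 passed an unadjusted p of 0.05.

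The 13 hnRNPs had a median of 0.018, with 8 higher and 5 lower means, and all 13 intervals lay within 1.25-fold. The 29 RBM genes had a median of 0.022, with 18 higher and 11 lower means and log2 fold changes from -0.19 to 0.15. Of these 29 intervals 26 lay within 1.25-fold. Of the 4 STAR genes, *Khdrbs1* and *Qk* had 0.014 and 0.021, and *Khdrbs2*, the STAR gene with the lowest level, had -0.18 with an SE of 0.13. The 3 PTB genes ran from -0.091 for *Ptbp3* to 0.12 for *Ptbp1*.

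In B6 mouse 8, 18 of 79 members lay beyond 0.3 log2 units from the median of the other B6 mice, 22.8%, beside 29.8% of all genes. In B6.D2 congenic mouse 1, 32 of 79 did so, 40.5%, beside 54.9% of all genes. In the other 14 mice the number was 0 to 4. Of the SR protein and Tra2 genes, 11 of 13 lay below the other mice in B6 mouse 8, by a median of -0.24, and 13 of 13 lay above them in congenic mouse 1, by a median of 0.23.

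In B6 mouse 8 the members furthest down were *Srsf5* at -0.83, *Tra2a* at -0.68, *Rbm41* and *Srsf11* both at -0.67 and *Elavl4* at -0.57. The highest were *Rbm15* at 0.38, *Khdrbs2* at 0.35 and *Hnrnpa0* at 0.32. A list of 9 nuclear-retained RNAs, *Malat1* and *Meg3* among them, lay below the other B6 mice in 9 of 9, by a median of -1.44 log2 units, and summed to 4926 CPM against 11126 to 13235. In the same mouse the striatal neuron markers summed to 9596 CPM against 6588 to 8503, and 10 of 10 endothelial markers lay below the other B6 mice, by a median of -0.23. In congenic mouse 1 all 6 CELF genes lay below the other congenic mice, by a median of -0.36, with *Celf1* at -0.66. *Rbm20* at -0.76, *Rbm33* at -0.75, *Rbm26* at -0.65 and *Rbfox2* at -0.63 were also low. *Rbm3* at 0.63, *Hnrnpa0* at 0.58, *Srsf9* at 0.53 and *Srsf2* at 0.47 were high. The nuclear-retained list summed to 8703 CPM in that mouse against 11141 to 13508 in the other congenic mice, and the 10 microglial markers to 906 against 722 to 778. The part of these differences in the members' values was not tested. Both sums of the nuclear-retained list include *Xist*, a sex-dependent RNA, and the sex of each mouse is not in the labels.

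**Figure D5:**
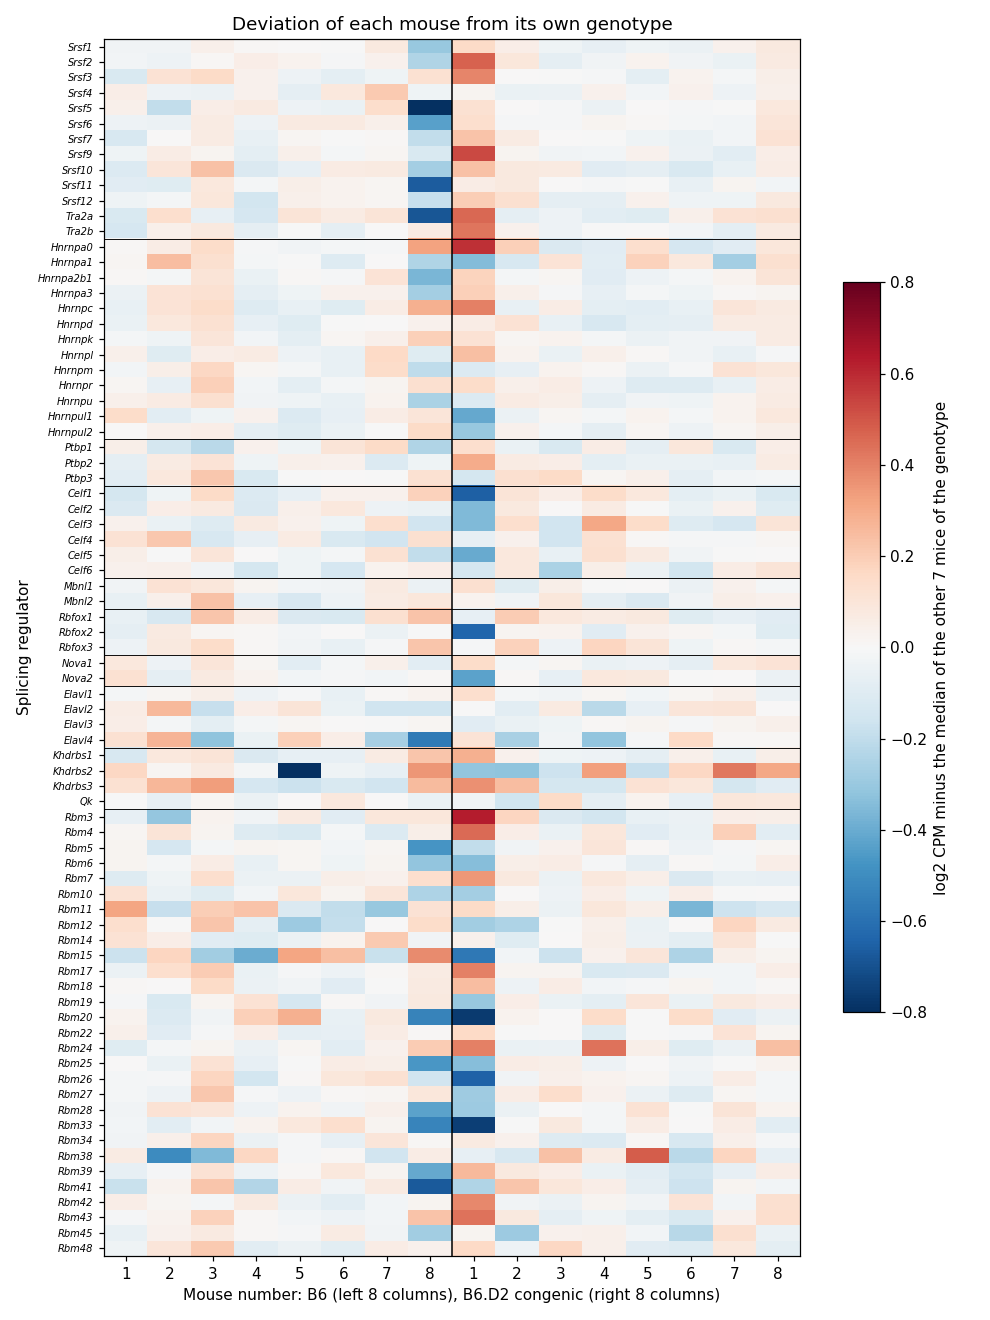
Deviation of each of the 79 splicing regulators (rows, by family) in each mouse (columns) from the median of the other 7 mice of its genotype, in log2 CPM, red for higher and blue for lower, cut at 0.8 in either direction. B6 mouse 8 and B6.D2 congenic mouse 1 are the columns with the strongest colours, in 18 and 32 members beyond 0.3.

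Without both mice, 0 members passed an adjusted p of 0.05 and 7 passed an unadjusted p of 0.05, 8.86% of 79 beside 12.8% of all genes. *Rbm22*, *Srsf5* and *Hnrnpul1* were higher in the congenic mice, at log2 fold changes of 0.093, 0.096 and 0.074. *Khdrbs3*, *Elavl4*, *Rbm18* and *Ptbp2* were lower, at -0.23, -0.18, -0.086 and -0.070. *Srsf2* was not among them. *Hnrnpul1*, *Rbm18*, *Ptbp2* and *Elavl4* are named after their values were seen.

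The other genes of the splicing machinery were read from the same fit. Of a list of 98 genes of the core spliceosome, kinases of SR proteins and further splicing proteins, 96 were tested and 0 passed an adjusted p of 0.05 by edgeR's quasi-likelihood test. At an unadjusted p under 0.05, 5 were higher and 1 lower in the congenic mice, 6.25% of 96 beside 10% of all genes. *Crnkl1*, a core component of the spliceosome, was lower, at 19.0 ± 1.10 CPM in B6 and 17.1 ± 1.20 in congenic mice (SD, n = 8 each), a log2 fold change of -0.16 (SE 0.053, edgeR adjusted p = 0.397). *Clk2*, a kinase that phosphorylates SR proteins, was at 32.4 ± 3.88 and 36.6 ± 1.95 CPM, a log2 fold change of 0.18 (SE 0.069, edgeR adjusted p = 0.431). *Srpk3*, *Clk4* and *Taf15*, named after their values were seen, were also higher. The study places *Clk4* inside the chromosome 11 segment that differs between the genotypes, and whether this bears on its level was not tested. Of the 9 SR protein kinases 3 passed, all higher, against 4.86% of all genes in that direction. In the mice of lanes 5 and 6 alone 2 of the 9 passed, both higher, beside 3.20% of all genes in either direction. In the mice of lanes 7 and 8 alone, and with the cortical marker score as a covariate, 0 of the 9 passed. The shares of all genes there were 9.01% and 2.08%. Without B6 mouse 8 and congenic mouse 1, 3 of the 9 passed, all higher, 33.3% beside 12.8% of all genes. In B6 mouse 8 these kinases lay below the other B6 mice, *Srpk3* by -1.55 log2 units, *Clk4* by -0.77 and *Clk2* by -0.51. Without the 2 mice the same list had 14 genes at an unadjusted p under 0.05, 12 higher and 2 lower, 14.6% beside 12.8% of all genes.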

How the data were processed

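The authors aligned 50-base single-end reads with TopHat to mm10 (FastQC 0.10.1, TopHat2 2.0.0, HTSeq 0.6.1p1 per the processing notes) and counted them per gene in union mode, without strand although the kit was stranded. The deposited counts, raw and not normalized, came as 31 lane files and were summed per mouse. For B6 mouse 7, 1 lane file was used. The authors' tables of fold changes and p-values were not used.

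edgeR 4.0.16 (R 4.3.3) tested 15589 genes by the quasi-likelihood test after filterByExpr and TMM, with Benjamini-Hochberg adjustment over all of them. The study's home cage covariate and sex are absent from the labels and were not modelled. Values per mouse are TMM-scaled CPM. Exact permutation tests used log2 CPM (prior count 0.5) and 12870 arrangements, whose smallest two-sided p is 0.0001554. Intervals are 95%. The pipeline was also tested on simulated data. At an adjusted p under 0.05 it recovered 29% of genes changed by 0.3 log2 units and 81.5% of those changed by 0.585. The simulated mice held none that stood apart from their genotype. Alternatives covered scaling, filters, DESeq2 1.42.0, lanes, a replicate block, the cortical markers and leaving out mice.

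Exon lengths, shared exon bases and unique windows come from GENCODE on NCBIM37 (mm9, 76 of 79 members matched) and positions from RefSeq GRCm38.p6, by symbol. The members and lists were chosen with earlier results of these data known. Statistics are given for the 20 members with the smallest p, values per mouse for the first 8, and for the 3 other splicing genes with the smallest p, of which 1 is not reported here.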

Additional observations from a re-analysis of the deposited data

Results flagged for a closer look

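In each genotype and for each of the 79 splicing regulators, the highest and the lowest of the 8 mice were compared with the nearest of the others. In 57 of 158 such groups the gap was a larger part of the whole range than Dixon's 95% critical value for 8 samples, which chance passes in about 1 of 20 groups. B6.D2 congenic mouse 1 was the mouse in 37 of them and B6 mouse 8 in 17. The values below are in CPM.

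In B6.D2 congenic mouse 1, SR protein and Tra2 genes stood above the other congenic mice, with *Srsf2* at 183, *Srsf3* at 175, *Srsf9* at 61.8, *Srsf10* at 95.3, *Tra2a* at 115 and *Tra2b* at 101. The other congenic mice held between 128 and 140 CPM of *Srsf2* and between 41.1 and 44.6 of *Srsf9*. The hnRNP genes *Hnrnpa0* at 174, *Hnrnpa3* at 238, *Hnrnpc* at 248 and *Hnrnpl* at 229.9 were also above. So were *Khdrbs1* at 149, *Ptbp2* at 127 and *Elavl1* at 106. Of the RBM genes, *Rbm3* at 133, *Rbm4* at 15.8, *Rbm7* at 43.7, *Rbm17* at 52.6, *Rbm18* at 61.6, *Rbm39* at 283, *Rbm42* at 53.9 and *Rbm43* at 18.8 lay above.

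The same mouse stood below the other congenic mice in the CELF genes *Celf1* at 233, *Celf2* at 488 and *Celf5* at 287, where the others held 337 to 391 of *Celf1*. *Rbfox2* at 208, *Nova2* at 90.4, *Hnrnpul1* at 67.0 and *Hnrnpul2* at 225 were also below. Of the RBM genes, *Rbm5* at 139, *Rbm6* at 53.7, *Rbm10* at 41.8, *Rbm19* at 11.6, *Rbm20* at 2.67, *Rbm25* at 128, *Rbm26* at 25.02, *Rbm28* at 70.9 and *Rbm33* at 98.9 were below.

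B6 mouse 8 stood below the other B6 mice in *Srsf1* at 186, *Srsf2* at 109, *Srsf5* at 166, *Srsf6* at 116, *Srsf11* at 113 and *Tra2a* at 53.5, where the others held 256 to 315 of *Srsf5*. It was also below in *Hnrnpa2b1* at 416, *Hnrnpa3* at 176, *Rbm5* at 112, *Rbm6* at 55.2, *Rbm25* at 116, *Rbm28* at 62.4, *Rbm33* at 112, *Rbm39* at 178 and *Rbm45* at 20.04. It stood above them in *Hnrnpa0* at 147 and *Rbm24* at 28.6. *Hnrnpa0* was thus high, and *Rbm5*, *Rbm6*, *Rbm25*, *Rbm28* and *Rbm33* low, in both mice.

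Single values stood apart in 3 further B6 mice, with *Khdrbs2* at 2.62 in B6 mouse 5, *Rbm3* at 69.1 in B6 mouse 2 and *Rbm27* at 55.2 in B6 mouse 3. The causes of these values were not tested.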

How the results depend on the processing

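Over 29 alternative settings, 0 splicing regulators passed an adjusted p of 0.05 in each of them. The numbers at an unadjusted p under 0.05 were small and moved. Upper-quartile scaling gave 7 higher in the congenic mice and DESeq2 4, where edgeR with TMM gave 2. In these fits 10.2%, 10.3% and 10% of all genes passed in either direction. The mice of lanes 5 and 6 gave 0 higher, 2 lower and 2 other splicing genes, beside 3.20% of all genes. Those of lanes 7 and 8 gave 4 lower and 3 other splicing genes, beside 9.01% of all genes. The cortical marker score gave 0 higher, 0 lower and 1 other splicing gene, beside 2.08% of all genes. B6 mouse 8 and B6.D2 congenic mouse 1 were also left out together, a choice made after seeing the data. This gave 4 lower and 14 other splicing genes, where all 16 mice gave 1 and 6. Of all genes 12.8% passed without the 2 mice and 10% with all 16. Leaving out 1 mouse at a time gave 1 to 6 higher, 1 to 3 lower and 2 to 13 other splicing genes. Over these fits 7.09% to 13.4% of all genes passed. The number higher was 6 without B6 mouse 7, 4 without B6 mouse 3 or congenic mouse 3 or 7, and 1 without B6 mouse 2 or congenic mouse 2. The number lower was 3 without congenic mouse 1 and 2 without B6 mouse 4 or 5. Other splicing genes numbered 13 without congenic mouse 1, 10 without B6 mouse 7 and 2 without congenic mouse 8. The shares of all genes in these fits were 13.4%, 11.5% and 7.89%, and the 13 made up 13.5% of the other splicing genes. The members' median ran from -0.0016, without congenic mouse 1, to 0.031 under upper-quartile scaling. Of the 20 members with full statistics, the log2 fold change reversed for *Hnrnpa1* in the mice of lanes 7 and 8 (0.027) and for *Khdrbs3* with the cortical score (0.0014). Over all 79 members the sign changed for 16 in the mice of lanes 5 and 6, 15 in those of lanes 7 and 8, 17 with the cortical score and 13 without the 2 mice. The cause of these moves was not tested.

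A replicate block on the mouse numbers gave 1 member higher, where the fit without it gave 2. The numbers did not pair the mice, since same-numbered mice correlated between -0.12 and 0.36, over 0.1 for 3 of 8 numbers. Mice did not all correlate best with their own number, which held for numbers 2 and 6.

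Punches of whole tissue, 8 mice per genotype and gene-level counts limit what can be seen. The intervals bound the change of a member's RNA in the whole punch, and neither transcript isoforms nor protein were measured.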
